A study of Homo sapiens with 4 samples.

Results

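The kallikrein-related peptidases are secreted serine proteases encoded side by side on human chromosome 19. They are made as inactive zymogens, and some of them activate one another by cleavage. In skin, KLK5 and KLK7 cut the proteins that hold the outermost cells together, and in glandular epithelia several members are known for levels that differ between normal and malignant tissue. The genes described here are KLK5, KLK6, KLK7, KLK8, KLK9, KLK10, KLK11 and KLK13, the group chosen from the epithelial side of the cluster. They are 8 of the 26518 Ensembl genes measured, found by matching the identifiers to these symbols in GENCODE release 29 (hg38). They were chosen with the difference between the groups in view, so their values in that comparison are a description and carry no test.

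Expression was measured by RNA-seq of total RNA from MDA-MB-468, an established line of triple-negative breast cancer cells grown in DMEM with 5% FBS. There were 2 libraries of cells given the control lentivirus pGIPZ-CTRL (shControl) and 2 of cells given a lentivirus with a short hairpin RNA against SASH1, a signalling scaffold (shSASH1). All 4 libraries came from lines kept under puromycin as stable clones, so the controls carry a vector and the selection too. The labels do not say how many clones or hairpins the lines stand for, how long they were selected, or whether both libraries of each group had cultures of their own. The p-values below therefore measure only the spread between these libraries, which may be technical. Values are TPM (transcript abundance), a level scaled for gene length and library size.

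SASH1 stood at 15.0 and 13.0 TPM in shControl and at 3.65 and 4.01 TPM in shSASH1, with a log2 change of -1.63 ± 0.13 (SE, limma adjusted p = 0.00391). Read numbers rebuilt from the TPM values of the listed genes summed to between 19566651 and 24383873 per library. The 7 epithelial and breast cancer markers (EPCAM, CDH1, KRT8, KRT18, KRT5, KRT17 and EGFR) were all present and summed to 4978 to 5001 TPM in shControl and 5265 to 6198 TPM in shSASH1. EGFR rose, from 1169 and 1075 to 2191 and 2203 TPM (log2 change 0.97, limma adjusted p = 0.0034), while the other 6 had negative log2 changes that did not pass, the lowest being that of CDH1 (-0.47). Of 4 fibroblast markers COL1A2 was listed at 0 in every library, and the list summed to 6.34 to 7.12 and 9.11 to 11.0 TPM, nearly all of it COL1A1. COL1A1 did not pass (log2 change 0.51, limma adjusted p = 0.0557) but did with quantile normalization (0.0477) and with voom on rebuilt reads (0.0343). Its log2 change was 0.63 without shSASH1 replicate 1 and 0.38 without replicate 2. The part of these marker differences in the kallikrein values was not tested. Of 3 leukocyte markers PTPRC was listed at 0 in shControl and at 0.0831 and 0.104 TPM in shSASH1, while CD14 made up nearly all of a sum of 33.2 to 39.9 and 33.4 to 96.6 TPM. The 3 endothelial markers summed to 2.44 to 2.61 and 1.17 to 1.57 TPM.

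All 8 kallikrein genes were lower in both shSASH1 libraries than in both shControl libraries. Among all genes above 0 in at least 1 library, 27.7% showed that same order. Only 5 of the 8, KLK5, KLK6, KLK7, KLK8 and KLK10, had the mean of at least 1 TPM needed to enter the fit across 14458 genes. KLK7 and KLK8 reached that mean only through their shControl libraries, so they had to differ to be counted. In that fit 5 of 5 were on the lower side of limma's threshold (adjusted p of at most 0.05), where 13.3% of all tested genes were lower, 18.8% higher and 32% called in either direction. With quantile normalization the split of all calls was 2280 higher and 2433 lower, and with voom on rebuilt reads 2534 and 2812, against 2712 and 1918 here. Without either shControl library limma called 0 of the 14458 genes, the 5 kallikreins and the list genes below included, with 3326 and 3446 genes at an unadjusted p under 0.05. Without 1 shSASH1 library the spread comes from the closely agreeing shControl pair alone. The lone shSASH1 library is then assumed to vary like it. Calls in those settings follow the spread of that pair, so for list genes only log2 changes are given below. The median log2 difference of the 5 was -3.65, and that of all tested genes 0.06. Since the genes were picked on this contrast, none of these shares says that kallikreins stand apart. In a bulk sample, fewer cells that express a gene and less RNA per cell cannot be told apart.

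**Figure D1:**
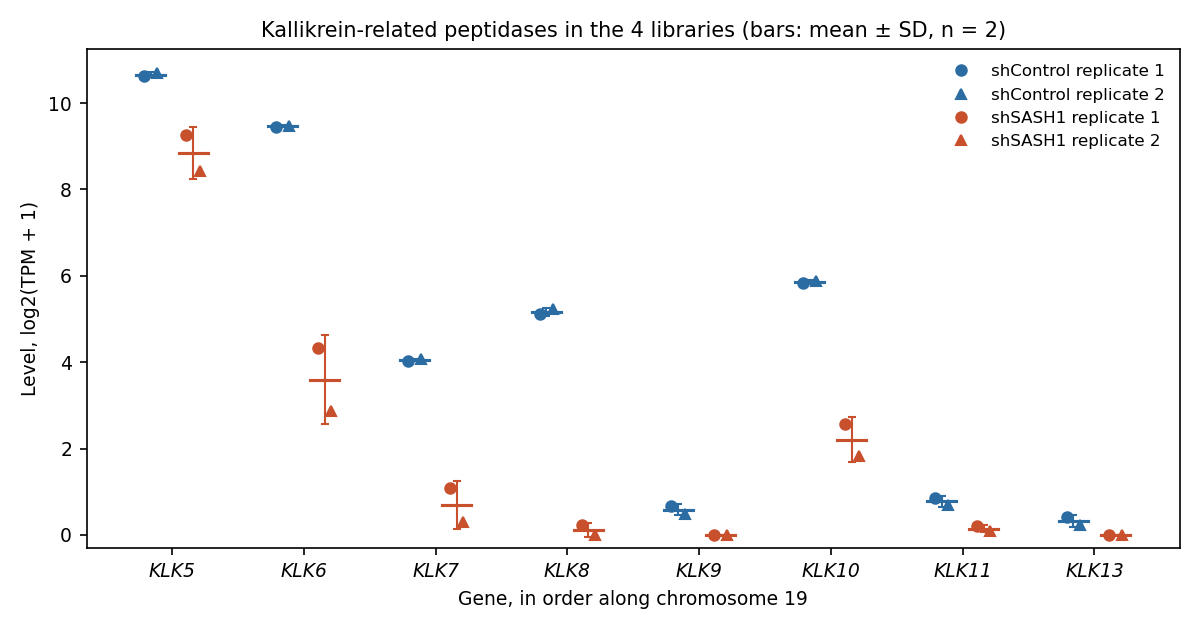
Level of each of the 8 kallikrein genes on the log2(TPM + 1) scale (vertical axis), in their order along chromosome 19 (horizontal axis). Points are single libraries and bars the mean ± SD of 2 libraries. The orange shSASH1 points lie under the blue shControl points in every gene, and KLK5 is the gene that stays highest, at 340.5 to 611.9 TPM.

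KLK5, a trypsin-like protease that can activate itself and other kallikreins, was the most abundant member. Its gene lies at chromosome 19, 50943303 to 50953093, minus strand. It stood at 1571 and 1653 TPM in shControl, where it ranked 44 and 45 among all genes, and at 611.9 and 340.5 TPM in shSASH1. The groups did not overlap, and the shControl mean of 1612 ± 58.6 TPM was 3.39 times the shSASH1 mean of 476.2 ± 192 TPM (SD, n = 2). KLK5 thus remained among the more abundant transcripts of these cells, at rank 142 and 321.

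KLK6, also trypsin-like and known from the nervous system under the name neurosin, lies next to it at 50958631 to 50969673. It stood at 695.7 and 711.3 TPM in shControl, and at 18.97 and 6.28 TPM in shSASH1. Its log2 difference of -5.87 was the most negative of all 14458 genes on the log2(TPM + 1) scale. That place depends on the scale and the library: KLK6 ranked 12 with a pseudocount of 0.1, 21 with voom on rebuilt reads and 2 without shSASH1 replicate 2, and on the first and second of these KLK8 was lower (-7.75 against -6.00, and -8.44 against -6.01). The shControl mean of 703.5 ± 11.0 TPM was 55.7 times the shSASH1 mean of 12.6 ± 8.97 TPM. That ratio depends on the library: it was 37.1 against shSASH1 replicate 1 alone and 112 against replicate 2 alone. Even the lower library held 65 rebuilt reads of KLK6.

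KLK7, the chymotrypsin-like enzyme of the stratum corneum and a substrate of KLK5, lies at 50976482 to 50984099. Its level was 15.3 and 15.8 TPM in shControl and 1.12 and 0.234 TPM in shSASH1. The ratio of means was 23.0, but 13.9 against replicate 1 alone and 66.4 against replicate 2 alone, where about 3 reads remained (2.98 rebuilt). KLK7 and KLK5, the pair that acts together in skin shedding, thus differed between the groups by unequal folds.

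KLK8, called neuropsin and also found in skin and brain, lies at 50996007 to 51002711. It stood at 33.4 and 36.6 TPM in shControl, at 0.163 TPM in shSASH1 replicate 1 and was listed at 0 in replicate 2. In rebuilt reads that is 833 over the shControl pair and 2 over the shSASH1 pair, a ratio of 407 after scaling to the total reads of each pair, with an exact 95% interval of 112 to 3364 that covers counting error only. Both of those reads came from replicate 1, and by TPM the shControl mean was 214 times that library alone. KLK8 was the member nearest to absence among those with a clear control level.

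KLK10, first described as a gene of normal breast epithelial cells that many breast cancer lines lack, lies at 51012739 to 51020175. It stood at 55.8 and 58.1 TPM in shControl and at 4.93 and 2.56 TPM in shSASH1, a ratio of means of 15.2 (11.5 against replicate 1 alone, 22.2 against replicate 2 alone). The remaining members were near the detection limit even in the controls. KLK11, at 51022216 to 51028039, stood at 0.822 and 0.608 TPM in shControl (15 and 13 rebuilt reads) and at 0.147 and 0.0613 TPM in shSASH1 (3 and 1 reads). KLK9, at 51003111 to 51009634, stood at 0.591 and 0.404 TPM in shControl and was listed at 0 in both shSASH1 libraries. KLK13, at 51056206 to 51065114, stood at 0.330 and 0.169 TPM and was likewise listed at 0 in both shSASH1 libraries. For KLK9 and KLK13 the control values come to fewer than 5 rebuilt reads per library, and these reads did not come out whole, so the gene lengths behind their TPM may differ from those used here. The KLK9 and KLK13 differences thus rest on a handful of reads.

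In shControl the order of levels was KLK5, KLK6, KLK10, KLK8, KLK7, KLK11, KLK9, KLK13. The first 5 were separated by far more than the spread of their libraries, since their shControl replicates differed by at most 1.10-fold. KLK11 and KLK9 were not clearly separated, the lower KLK11 library (0.608 TPM) being close to the higher KLK9 library (0.591 TPM). In shSASH1 the order was KLK5, KLK6, KLK10, KLK7, KLK11, KLK8, so that KLK8 moved from the fourth to the sixth place. Both KLK11 values, 0.147 and 0.0613 TPM, lay within the range of KLK8, so the order of these genes in shSASH1 is not settled by these libraries.

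The 8 genes summed to 2373 and 2476 TPM in shControl, or 0.257% and 0.267% of the TPM of all listed genes. In shSASH1 they summed to 637.2 and 349.7 TPM, or 0.0691% and 0.0384%. All listed genes together held 910830 to 926711 TPM per library. The make-up of the kallikrein sum differed as well. KLK5 held 66.2% and 66.8% of it in shControl and 96.0% and 97.4% in shSASH1, while KLK6 held 29.3% and 28.7% against 2.98% and 1.80%. Without KLK5, the other members summed to 812.4 ± 14.7 TPM in shControl and 17.2 ± 11.5 TPM in shSASH1 (SD, n = 2). The ratio of means was 47.1 (32.1 against replicate 1 alone, 88.9 against replicate 2 alone), compared with 4.91 with KLK5 included. KLK6 made up 703.5 and 12.6 TPM of those means, so the 47.1 mostly follows its own ratio of 55.7. In these cells the kallikrein transcripts were thus a mixture of mainly KLK5 and KLK6 under the control vector and almost entirely KLK5 after depletion.

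The shSASH1 libraries differed from each other in these genes. Replicate 2 lay below replicate 1 in 6 of the 8, the other two being at 0 in both. The ratio of replicate 1 to replicate 2 was 1.80 for KLK5, 1.92 for KLK10, 2.39 for KLK11, 3.02 for KLK6 and 4.79 for KLK7. Over all tested genes the median difference of replicate 2 from replicate 1 in shSASH1 was 0.05 log2 units, and 42.3% of genes were lower in replicate 2. The SASH1 transcript itself was at 3.65 TPM in replicate 1 and 4.01 TPM in replicate 2. Other genes named in this report went both ways. KRT17 (560.5 and 227.2 TPM), KRT5 (1225 and 757.7 TPM) and KRT16 (306.5 and 160.0 TPM) were also lower in replicate 2. CD14, at 33.3 and 96.5 TPM, and SLPI, at 820.1 and 1374 TPM, were higher there. The part that these differences between libraries play in the kallikrein values was not tested.

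**Figure D2:**
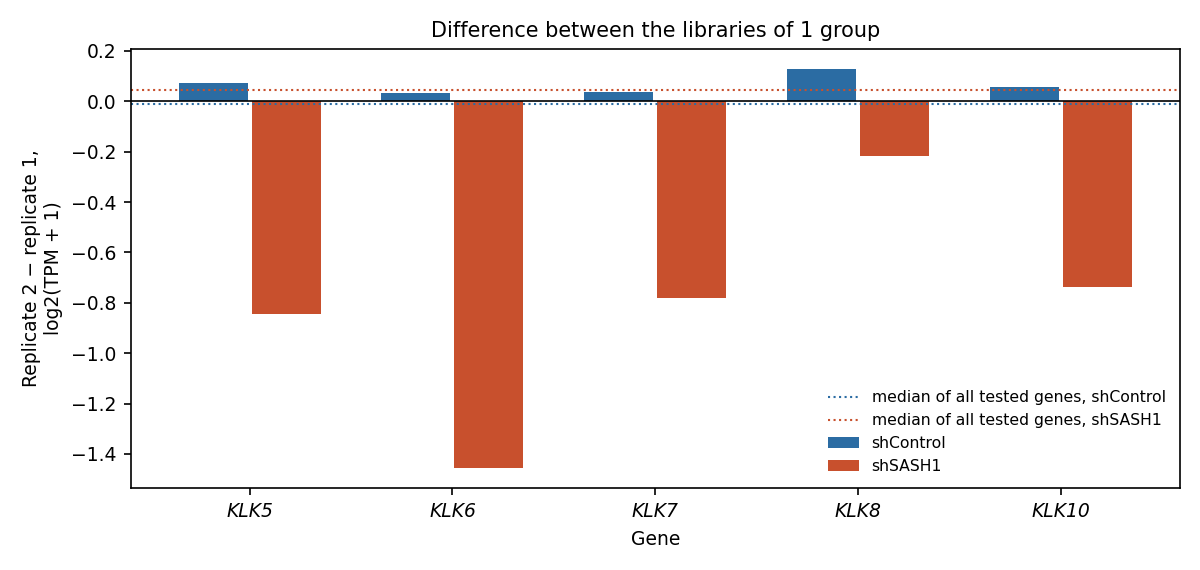
Difference of replicate 2 from replicate 1 within each group, on the log2(TPM + 1) scale (vertical axis), for the 5 kallikrein genes whose mean reached 1 TPM (horizontal axis). Dotted lines mark the medians of all tested genes. The blue shControl bars stay within 0.13 log2 units of 0, while the orange shSASH1 bars reach -1.46 in KLK6.

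Promoter sequence was examined because these neighbouring genes were lower together. RefSeq promoter windows of 300 bases on GRCh38.p14 (250 before to 50 after a start) were at hand for 7 of the 8 members, KLK8 being the exception, and gave 12 windows, since some members have several starts. The stretches below belong to KLK5, KLK6 and KLK7, the adjacent genes that open the group on its left side. Each runs 5′ to 3′ on the minus strand and ends just before the outermost start in GENCODE. Capitals mark CATTCC, the reverse complement of the TEAD motif GGAATG, in KLK5 and CCGCCC, the reverse complement of the GC box GGGCGG, in KLK6 and KLK7. They lie at chr19:50953094-50953288, chr19:50969674-50969841 and chr19:50984100-50984314.
KLK5: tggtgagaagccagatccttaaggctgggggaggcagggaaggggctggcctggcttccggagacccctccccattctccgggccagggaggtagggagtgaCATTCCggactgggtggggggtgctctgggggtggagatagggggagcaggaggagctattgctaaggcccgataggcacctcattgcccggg
KLK6: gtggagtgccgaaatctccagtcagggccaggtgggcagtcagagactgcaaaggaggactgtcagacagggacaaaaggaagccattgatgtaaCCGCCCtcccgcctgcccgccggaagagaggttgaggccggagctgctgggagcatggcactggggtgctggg
KLK7: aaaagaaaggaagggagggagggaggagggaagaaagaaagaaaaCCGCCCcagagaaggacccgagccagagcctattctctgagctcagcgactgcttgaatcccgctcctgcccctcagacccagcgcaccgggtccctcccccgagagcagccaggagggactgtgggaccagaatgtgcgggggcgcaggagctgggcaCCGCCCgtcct

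The motifs searched, on both strands, were the TATA box TATAAA, the AP-1 motif TGANTCA, the TEAD motif GGAATG, the grainyhead motif AACNNGTT, the C/EBP motif TTGCNNAA and the GC box GGGCGG. None of the 12 windows held the TATA box, the AP-1, the grainyhead or the C/EBP motif, which occurred in 11.6%, 7.72%, 3.53% and 10.5% of all 34943 windows. The TEAD motif occurred in 1 of 12, that of KLK5, and in 14% of all windows. The GC box occurred in 8 of 12, in KLK6, KLK7, KLK9, KLK11 and KLK13, and in 44.9% of all windows. Within KLK7, KLK10 and KLK13 the windows overlap, so they are not independent, while the 2 windows of KLK11 lie apart. A match is only a string of letters and no match says only that the letters are not in this window. The member windows held 3 to 23 CpG pairs with a median of 12, against a median of 14 over all windows (quartiles 4 and 28), and a median GC content of 64.2% against 58.7%. All 12 member windows, at 59% to 70.7% GC, thus lay above the median GC content of all windows, while their CpG numbers lay on both sides of the median.

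The rest of the cluster was expressed at low levels, and 3 of its 8 genes, KLK1, KLK12 and KLK14, were lower in both shSASH1 libraries than in both shControl libraries. Among all genes above 0 in at least 1 library 27.7% showed that order, so this count does not set these genes apart. The cluster holds 16 genes in 265 kb, the 8 above and KLK1, KLK2, KLK3, KLK4, KLK12, KLK14, KLK15 and the pseudogene KLKP1. Of these other 8 only KLK14, a trypsin-like enzyme of skin at the right end of the cluster, entered the fit. KLK14 stood at 3.87 and 3.31 TPM in shControl and at 1.79 and 2.73 TPM in shSASH1. Its log2 change of -0.50 ± 0.22 did not pass (limma adjusted p = 0.143), although the groups did not overlap. The log2 change was -0.71 without shSASH1 replicate 2 and -0.30 without replicate 1. KLK1, tissue kallikrein, which releases kinins, lies at the left end and stood at 1.86 and 1.65 TPM in shControl and at 0 in both shSASH1 libraries. Its 53 rebuilt control reads make it at least 17.25-fold lower in shSASH1, taking 3 reads over the group as the floor. Without a filter on low values KLK1 was called lower (limma adjusted p = 0.0077), the 1 call among these 8 genes in that setting. There 1728 of all 21574 genes were called lower. KLK12 was at 0.289 and 0.165 TPM in shControl (3 and 2 rebuilt reads) and listed at 0 in shSASH1. KLK2, KLK3, KLK4, KLK15 and KLKP1, several of them prostate genes (KLK3 encodes prostate-specific antigen), stayed under 0.31 TPM in every library.

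**Figure D3:**
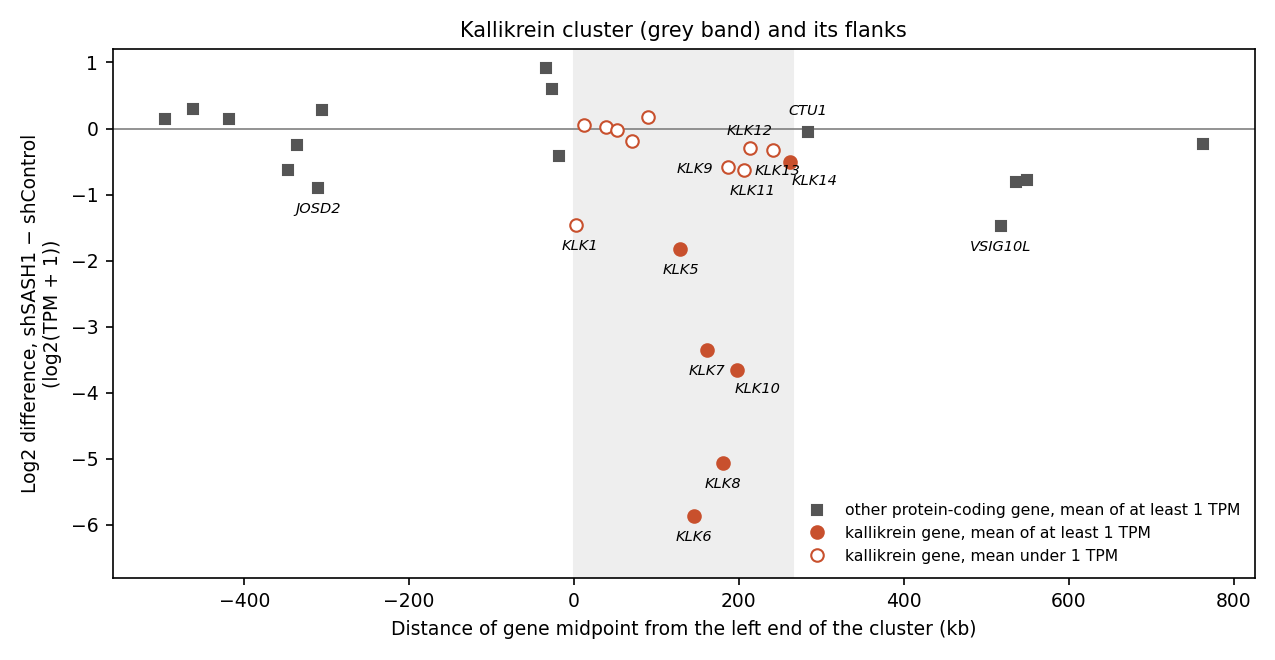
Log2 difference between shSASH1 and shControl (vertical axis, log2(TPM + 1) scale) by distance from the left end of the cluster in kb (horizontal axis). All kallikrein genes of the cluster are shown, also those with a mean under 1 TPM. Other protein-coding genes within 500 kb are shown only where the mean was at least 1 TPM. The grey band is the cluster. The 5 lowest points, from -1.82 to -5.87, are KLK5, KLK6, KLK7, KLK8 and KLK10, while KLK14 and CTU1 at the right end lie at -0.50 and -0.05.

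Genes around the cluster were compared to see how far the difference extends along the chromosome. Of 37 protein-coding genes within 500 kb of the cluster, 15 were tested, 5 fell and 1 rose, with a median log2 change of -0.24. That median was -0.12 without shControl replicate 1 and -0.18 without shSASH1 replicate 1. Across all tested genes limma called 13.3% lower and 18.8% higher, and no test set the neighbours against those shares. CTU1, a tRNA-modifying enzyme and the nearest protein-coding gene beyond KLK14, stood at 26.6 and 28.9 TPM in shControl and at 26.1 and 27.4 TPM in shSASH1 (log2 change -0.05 ± 0.08, limma adjusted p = 0.659). C19orf48P, the nearest such gene on the KLK1 side (listed as protein-coding in GENCODE 29), fell by 0.41 log2 units (limma adjusted p = 0.0179), from 138.8 and 133.3 to 107.1 and 97.6 TPM. Farther out VSIG10L (-1.48), the deubiquitinase JOSD2 (-0.90), the electron transfer flavoprotein subunit ETFB (-0.81) and GARIN5A (-0.62) fell. The call of GARIN5A was lost without a filter on low values (limma adjusted p = 0.0927) and without a variance trend (0.0530). It was also lost with voom on rebuilt reads (0.0570) and with a replicate block (0.0711). The log2 change of GARIN5A was -0.56 without shSASH1 replicate 1 and -0.69 without replicate 2. POLD1, the catalytic subunit of DNA polymerase delta, did not pass (log2 change 0.14), and the oxysterol receptor gene NR1H2, named after its value was seen, rose by a log2 change of 0.29. NR1H2 lost its call with median-of-ratios scaling (limma adjusted p = 0.0572), quantile normalization (0.0806) and voom on rebuilt reads (0.0630), without a variance trend (0.0637) and with a replicate block (0.0647). The lowest log2 change among tested neighbours was that of VSIG10L, where the 5 kallikreins ran from -1.82 to -5.87. That gap depends on the scale. By TPM the shControl mean of VSIG10L was 3.60 times its shSASH1 mean, against 3.39 times for KLK5.

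The inhibitors that hold these proteases in check were mostly not called. Since 32% of all tested genes were called in either direction, that sets them little apart. Of 15 listed, 8 were tested, 1 rose and 1 fell, with a median log2 change of 0.24. At an unadjusted limma p under 0.05 stood 6 of the 8, as did 6695 of all 14458 tested genes. The median of the list was 0.44 without shSASH1 replicate 1 and 0.0082 without replicate 2. SERPINB6, an intracellular serpin, rose from 22.5 and 22.9 to 38.8 and 47.3 TPM (log2 change 0.89 ± 0.11, limma adjusted p = 0.00919), and SERPINF2, the plasmin inhibitor, fell from 8.57 and 6.27 to 1.82 and 2.52 TPM (-1.40 ± 0.22, adjusted p = 0.0140). The most abundant ones did not pass. SLPI, the secretory leukocyte protease inhibitor, was at 893.2 and 978.5 TPM in shControl and at 820.1 and 1374 TPM in shSASH1, and elafin PI3 at 315.3 and 302.2 against 177.0 and 254.7 TPM. PI3 passed with voom on rebuilt reads (log2 change -0.63, limma adjusted p = 0.0296). Its log2 change was -0.28 without shSASH1 replicate 1 and -0.80 without replicate 2. That of SLPI was 0.56 without replicate 1 and -0.19 without replicate 2. SPINK5, the main kallikrein inhibitor of skin, was under the filter, at 0.234 and 0.0997 TPM in shControl and at 0.661 and 0.915 TPM in shSASH1.

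Of 10 proteases that can cleave kallikrein zymogens, 4 were tested and 0 were called by limma, with a median log2 change of 0.17. That median was 0.09 without shSASH1 replicate 1 and 0.28 without replicate 2. Over all tested genes 32% were called, so 0 of 4 says little about this list. Matriptase ST14 stood at 253.5 and 263.6 TPM in shControl and at 285.4 and 268.1 TPM in shSASH1 (log2 change 0.10 ± 0.06, limma adjusted p = 0.278). Prostasin PRSS8 stood at 71.9 and 71.6 TPM against 81.8 and 78.8 TPM (0.16 ± 0.06, adjusted p = 0.101). At an unadjusted p under 0.05 limma gave 1 gene, PRSS8, and voom on rebuilt reads gave 0, also with 0 called. Of all 14458 tested genes those settings gave 6695 and 6923. Without shSASH1 replicate 2 the log2 change of PRSS8 was 0.19.

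Among 18 proteins that kallikreins are known to cleave, 12 were tested, 6 rose and 2 fell, with a median log2 change of 0.14. Over all tested genes 18.8% rose and 13.3% fell, and the list was not tested against those shares. The median was 0.06 without shSASH1 replicate 1, 0.22 without replicate 2 and 0.66 with a filter at a mean of at least 5 TPM. Fibronectin FN1, a matrix glycoprotein, rose from 4.51 and 4.42 to 14.4 and 15.2 TPM (log2 change 1.53), and the growth factor midkine MDK from 94.6 and 101.5 to 201.1 and 242.3 TPM (1.16). The thrombin receptor F2R rose by 0.91 log2 units. The antimicrobial peptide gene CAMP fell by 1.64, from 1.60 and 2.74 TPM to 0 in both shSASH1 libraries. The adhesion molecule L1CAM fell by 1.48, from 2.81 and 2.54 to 0.650 and 0.0525 TPM, and lost its call with a pseudocount of 0.1 (limma adjusted p = 0.0611). E-cadherin CDH1 (-0.47) and IGFBP3 (-0.06) did not pass, though CDH1 passed with voom on rebuilt reads (limma adjusted p = 0.0354). CDH1 stood at -0.70 without shSASH1 replicate 1 and at -0.24 without replicate 2. IGFBP3 stood at -0.17 without replicate 1 and at 0.05 without replicate 2. The corneodesmosome proteins that KLK5 and KLK7 cut in skin were low throughout, with CDSN at 0.598 to 2.34 TPM and DSG1 and DSC1 under 0.28 TPM in every library.

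The genes that carry keratinocyte differentiation gave a mixed picture. Of 23 cornified envelope and differentiation genes, 13 were tested, 5 fell and 2 rose, with a median log2 change of -0.81. Shares among all tested genes were 13.3% lower and 18.8% higher. Whether the list departs from them was not tested. CALML5, a calmodulin-like protein of differentiating skin, fell from 401.4 and 443.9 to 58.2 and 29.6 TPM (log2 change -3.31 ± 0.32, limma adjusted p = 0.00532). It too was lower in replicate 2. SPRR1B (-1.37), transglutaminase TGM1 (-1.28) and cornifelin CNFN (-1.11) fell, while the cysteine protease inhibitor CST6 rose from 13.2 and 14.3 to 35.8 and 62.2 TPM (1.71). Among the keratins, KRT10 fell from 145.1 and 157.0 to 70.4 and 74.7 TPM (-1.05). KRT6A rose from 13.2 and 11.0 to 20.7 and 26.9 TPM (0.92). KRT16 (-0.27) and KRT6B (-0.77) did not pass. KRT6B stood at -1.28 without shSASH1 replicate 1 and at -0.26 without replicate 2. KRT16 stood at -0.74 without replicate 1 and at 0.19 without replicate 2, so its direction rests on 1 library. The median of the list was -1.005 without replicate 1 and -0.61 without replicate 2.

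Of 17 transcription regulators of epidermal differentiation and steroid receptors, 14 were tested, 6 fell and 2 rose, with a median log2 change of -0.25. That median was -0.16 without shSASH1 replicate 1. These counts were not tested against the 13.3% lower and 18.8% higher over all tested genes. CEBPA, a differentiation factor, fell from 23.5 and 25.4 to 4.69 and 6.39 TPM (log2 change -1.97 ± 0.16, limma adjusted p = 0.00391). The grainyhead factor GRHL3 (-1.02), the epidermal factor ZNF750 (-0.83) and the retinoid partner RXRA (-0.72) fell, and the glucocorticoid receptor NR3C1 rose (0.81). CEBPB (-0.23) and the retinoic acid receptor RARG (-0.12) did not pass. CEBPB stood at -0.09 without shSASH1 replicate 1 and at -0.37 without replicate 2. The estrogen receptor gene ESR1, at 2.58 and 2.29 TPM in shControl against 2.79 and 3.64 TPM in shSASH1, had a log2 change of 0.29 and was not called. The receptor for progesterone (PGR) was under 0.03 TPM in every library, and TP63 was at most 0.331 TPM. Whether any of these genes bears on the kallikrein levels was not tested.

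**Figure D4:**
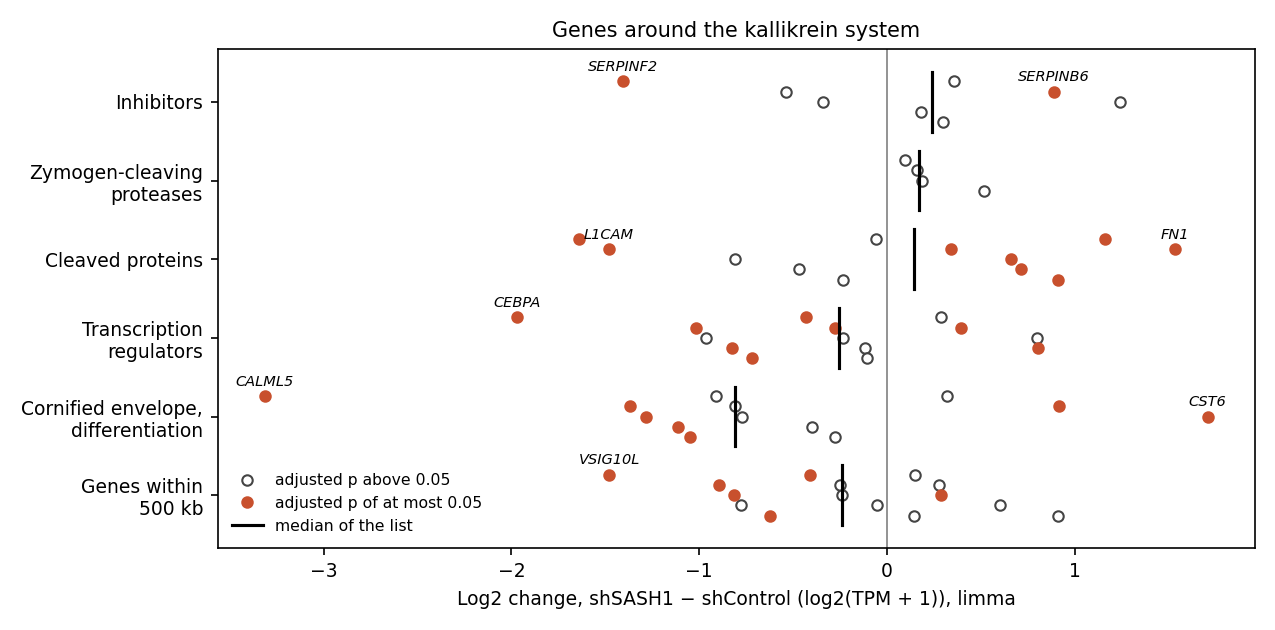
Log2 change between shSASH1 and shControl (horizontal axis, log2(TPM + 1) scale) of the tested genes of 6 lists (vertical axis); the vertical offset within a list only separates points. Filled points passed limma's adjusted p of 0.05 and black bars are list medians, which run from -0.81 for the cornified envelope list to 0.24 for the inhibitors (0.0082 without shSASH1 replicate 2).

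To find genes with a similar profile, each of 12510 protein-coding genes other than kallikreins was compared with KLK6 by the Euclidean distance between log2(TPM + 1) values centred on the gene's mean over the 4 libraries. The 5 nearest were the calcium-binding protein CALB2 (distance 1.23), STAC2 (1.62), the folate receptor FOLR1 (1.75), PALM (1.80) and the troponin TNNT1 (1.89). Among the kallikreins KLK8 lay at 1.19, KLK10 at 2.27, KLK7 at 2.56 and KLK5 at 4.07. With 4 libraries this distance mainly follows the difference between the groups.

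Annotated genes overlap some members. KLK5 shares 202 of its 1653 exon bases and KLK6 401 of 1976 with the antisense gene AC011483.2. KLK10 shares 240 of 3853 with the antisense gene AC011473.2. KLK8 shares 747 of 1865 and KLK9 787 of 840 with AC011473.4, a protein-coding gene on the same strand that spans both. Nearly all KLK9 exon bases are thus shared. These overlapping genes have no values in the deposited data. Whether strand was used in counting is not known from the labels, and reads from these overlaps cannot be assigned to either gene.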

How the data were processed

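RNA libraries came from an NEBNext Ultra kit (labels' protocols). The authors deposited TPM per Ensembl gene for 4 libraries. Per the submitters' processing notes, STAR, DESeq2 and hg38 were used, with no version or role stated. How reads were counted, on which annotation and with what lengths or strand setting is not given in the sources used here. All 26518 identifiers matched GENCODE release 29. TPM keeps no depth, so reads were rebuilt from TPM times exon-union length. Of values up to 20 reads, 88.6% to 89.2% came within 0.05 of a whole number, so read numbers are estimates.

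The fit took every gene whose mean reached 1 TPM and used limma 3.58.1 (R 4.3.3) with log2(TPM + 1) as the response and a variance trend, two-sided, with Benjamini-Hochberg adjustment over 14458 genes. Log2 differences on this scale understate low genes. With 2 libraries a group, no exact permutation p can reach 0.05. The script was tested on simulated data. The members, the gene lists, the motifs and the named-gene rule were chosen with earlier results of these data known. The rule named all members, and per list up to 5 called genes with the largest absolute log2 change and the 2 most abundant genes not called. For KLK6 it named the 5 nearest profiles. SPINK5, CDSN, DSG1, DSC1, KRT10, KRT6A, ESR1, PGR, TP63, KLK1, KLK12 and NR1H2 were named outside it, after their values were seen. Alternatives were another pseudocount, 2 other filters, median-of-ratios scaling, quantile normalization, no variance trend, voom on rebuilt reads, a replicate block and each library left out. Promoter windows are RefSeq's on GRCh38.p14.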

Additional observations from a re-analysis of the deposited data

How the results depend on the processing

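The 5 fitted kallikrein genes had a negative log2 difference in all 60 combinations of gene and alternative setting. Most of these signs were fixed beforehand. The groups did not overlap in these genes, so leaving out a library could not turn the sign. Another filter, no variance trend or a replicate block leaves the log2 difference itself unchanged. The size was less steady at low levels: with a pseudocount of 0.1 KLK7 stood at -4.61 and KLK8 at -7.75, and with voom on rebuilt reads at -4.78 and -8.44, against -3.35 and -5.06. Leaving out each library in turn, the number of all genes called ran from 0 to 7728, of genes called lower from 0 to 3185, and of kallikreins called lower from 0 to 5. The 0 came without either shControl library, when the shSASH1 pair alone gives the spread; 3446 and 3326 genes then had an unadjusted p under 0.05. With a replicate block 3929 genes were called against 4630, 1557 of them lower, and 5 kallikreins. The labels do not pair libraries by number, and same-numbered deviations correlated at -0.03 over 14458 genes. Without a filter 7 of 8 kallikreins were called lower, KLK13 being the exception, where 1728 of all 21574 genes were called lower. The calls of KLK9 and KLK11 rest on few rebuilt control reads, 2.91 and 2.33 for KLK9 and 15 and 13 for KLK11. The members were chosen on this contrast, so that count is a description. Of the lists, the genes near the cluster had 0 higher calls under median-of-ratios scaling, quantile normalization, no variance trend, voom and the replicate block. With voom the cleaved proteins had 5 lower calls and the inhibitors 3, where 2812 of all 14458 genes were called lower. The median of the cleaved proteins was 0.08 under median-of-ratios scaling and 0.07 with quantile normalization and voom. Without a filter, which adds low genes, the cornified list had a median of -0.40, the genes near the cluster -0.07, the zymogen proteases 0.03 and the cleaved proteins 0.03. Leaving out each library in turn also turned the direction of 7 named genes that had not passed: the log2 change ran from -0.19 to 0.56 in SLPI, from -0.17 to 0.048 in IGFBP3, from -0.74 to 0.19 in KRT16, from -0.22 to 0.0029 in KRT8, from -0.48 to 0.21 in KRT5, from -0.13 to 1.38 in CD14 and from -0.11 to 0.0055 in CTU1. The cause was not tested. The depth limits KLK9, KLK11 and KLK13 most.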
